A study of Mus musculus with 6 samples.

Results

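Slc10a2, which encodes the apical bile acid importer of the intestine, and Nr1h4, which encodes the bile acid receptor FXR, were higher in the jejunal epithelium of mice labelled transgenic for MSI2, and the transcription factor gene Osr2 was lower. The 10 genes described here are Slc10a2, Fabp6, Fgf15, Slc51a, Slc51b, Nr1h4, Nr0b2, Gpbar1, Osr2 and Onecut2. They were taken by name from the array annotation, 8 as genes of bile acid handling and Osr2 and Onecut2 as transcription factor genes listed with distal intestine markers. All 10 were found, each with 1 probe set that names no other gene, among 19933 genes measured. The study profiled total RNA of epithelial cells isolated from the mouse jejunum, the middle segment of the small intestine, on Affymetrix Gene 1.0 ST arrays. The 3 mice labelled control had the genotype R26-M2rtTA, a doxycycline-activated transactivator at the Rosa26 locus. The 3 mice labelled transgenic had the genotype TRE-MSI2::R26-M2rtTA, which adds a transgene for the RNA-binding protein MSI2 under a promoter that the transactivator switches on. All 6 mice drank doxycycline for 24 hours, so the transactivator and the drug were common to both groups. Rosa26 is active in most tissues, so induction was not confined by design to the epithelium. Strain and age are not given in the sources used here. Each mouse gave 1 array, labelled a biological replicate, and precision is limited by how few arrays there are. Values are log2 expression after RMA, so a difference of 1 is a 2-fold difference.

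The array medians lay between 6.42 and 6.46. The Msi2 probe set did not separate the labels. It read 11.30, 9.53 and 9.32 in control replicates 1, 2 and 3 and 11.23, 10.58 and 11.44 in the transgenic replicates, so control replicate 1 went against its label. Groups are therefore named by their labels throughout. The paralogue Msi1 read 7.20 to 7.97 in the controls and 12.82 to 13.53 in the arrays labelled transgenic. Msi1 was thus 50.7-fold higher (limma adjusted p = 0.000818), while Msi2 was 2.04-fold higher and did not pass (limma adjusted p = 0.257). Of these 2 genes only Msi1 separated the labels, and which of them the transgene carries was not tested. Control replicate 1 was also intermediate on the first principal component, which held 73.6% of the variance. It was at -21.87, control replicates 2 and 3 at -53.62 and -53.54 and the transgenic replicates at 22.88 to 59.06. Control replicate 1 stood apart on the second component too, which held 14.7%. Xist and Y-linked transcripts showed control replicates 1 and 3 and transgenic replicate 3 to be female and the other 3 animals male. In animals that lack those transcripts their probe sets read 4.07 to 5.06 (12 values), a range used below as a guide to dim signal, since no background calls were used here. Epcam and Cdh1, which mark epithelium, read 12.42 or more in all 6 arrays. Alb, Prss2 and Cpa1, which mark hepatocytes and pancreas, read at most 5.85. Serpina1c and Cela1, of the same marker list, read 4.63 to 6.03 and 6.52 to 6.78. Most of these values lay above the dim range.

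Bile acids are made in the liver, act as detergents in the gut lumen and are recovered mainly in the ileum. SLC10A2 carries them in across the brush border, FABP6 binds them in the cytosol, and the SLC51A-SLC51B heterodimer exports them across the basolateral membrane. FXR, bound to RXR, senses them and induces Fgf15, whose hormone lowers bile acid synthesis in the liver, and Nr0b2, whose product SHP is a corepressor. GPBAR1 is a cell surface receptor for bile acids.

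Of the 10 genes, 2 rose and 1 fell at an adjusted p under 0.05 in limma, where 8.97% of all genes rose and 9.65% fell (18.6% in either direction). The groups did not overlap for 4 genes that were higher and 2 that were lower, beside 19.5% and 17.5% of all genes (37.0% in either direction). The median log2 fold change, labelled transgenic minus labelled control, was 0.42 over the 10 genes and 0.021 over all genes. When replicate numbers were blocked, Slc10a2 and Nr1h4 rose and Osr2 and Slc51a fell. In that fit 12.7% of all genes rose and 13.1% fell (25.8% in either direction). The share of all genes that passed moved with the fit and with the arrays used. It was 10.8% with sex as a block, 35.5% with array weights, 17.9% and 18.1% with a variance trend and a robust one, and 24.3% and 31.4% among genes with a mean of at least 5 and 6. Without control replicate 1, 2 or 3 it was 27.8%, 4.9% and 4.78%, and without transgenic replicate 1, 2 or 3 it was 6.87%, 20.5% and 5.39%. A call lost when 1 array is left out is read against these shares.

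**Figure D1:**
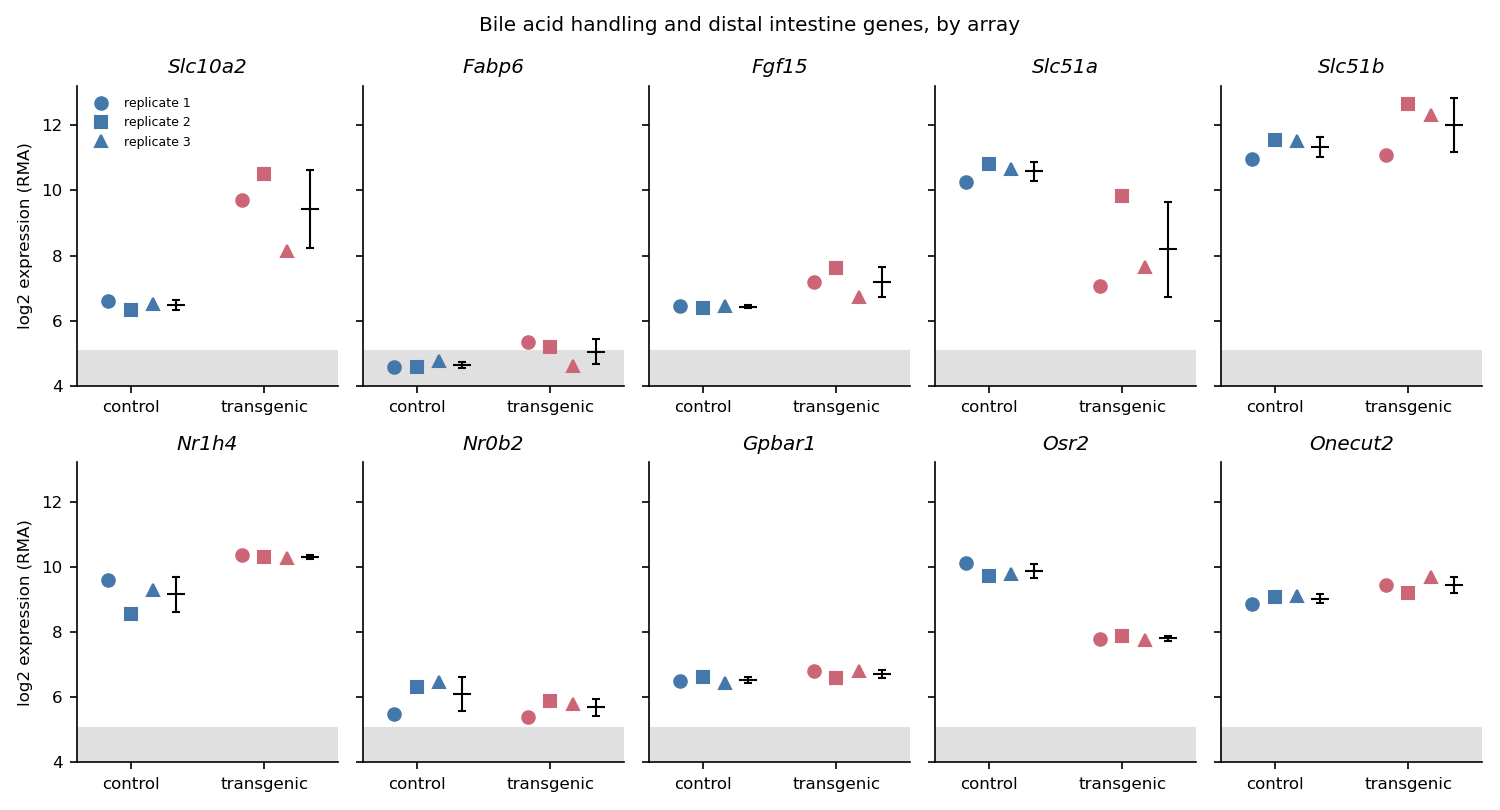
Log2 expression (RMA) of the 10 genes in each array, by label, with symbols for replicates 1 to 3. Black marks are group means with SD (n = 3), and the grey band is the dim range of 4.07 to 5.06. Slc10a2, Nr1h4 and Osr2 separate the groups, while Fabp6 lies in or near the band.

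The 250 bases before the annotated start are shown for the importer, the receptor and both exporter subunits, since the results on transport and sensing turn on these 4 genes. The sequences are those of RefSeq on build GRCm38.p6, 5′ to 3′ on the gene's strand, and 7 of the 10 genes had an entry. They are Slc10a2 at chr8:5105288-5105537, Nr1h4 at chr10:89506659-89506908, Slc51a at chr16:32487880-32488129 and Slc51b at chr9:65422774-65423023, all on the minus strand. The start that the table uses for Nr1h4 lies inside the annotated span of that gene. Capitals mark matches, on either strand, to 5 short motifs. The core site of nuclear receptors was searched as AGGTCA, which is also contained in the repeats named below. The site of GATA factors was searched as AGATAA and that of CDX factors as TTTATNG. The AP-1 site was searched as TGANTCA and the core of the HNF1 site as GTTAAT.
Slc10a2: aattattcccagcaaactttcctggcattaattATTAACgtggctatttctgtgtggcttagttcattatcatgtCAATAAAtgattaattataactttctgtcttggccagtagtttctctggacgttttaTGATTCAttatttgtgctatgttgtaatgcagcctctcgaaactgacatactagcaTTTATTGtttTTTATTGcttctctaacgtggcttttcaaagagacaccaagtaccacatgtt
Nr1h4: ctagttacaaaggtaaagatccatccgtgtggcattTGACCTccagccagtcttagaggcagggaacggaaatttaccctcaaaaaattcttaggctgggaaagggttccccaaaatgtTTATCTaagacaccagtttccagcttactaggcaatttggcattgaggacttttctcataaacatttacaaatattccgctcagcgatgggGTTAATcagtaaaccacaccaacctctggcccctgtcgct
Slc51a: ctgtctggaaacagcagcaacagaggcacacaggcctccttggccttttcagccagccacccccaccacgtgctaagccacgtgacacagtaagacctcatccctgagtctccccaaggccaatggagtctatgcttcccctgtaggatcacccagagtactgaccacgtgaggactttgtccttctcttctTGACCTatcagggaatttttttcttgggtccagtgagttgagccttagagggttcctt
Slc51b: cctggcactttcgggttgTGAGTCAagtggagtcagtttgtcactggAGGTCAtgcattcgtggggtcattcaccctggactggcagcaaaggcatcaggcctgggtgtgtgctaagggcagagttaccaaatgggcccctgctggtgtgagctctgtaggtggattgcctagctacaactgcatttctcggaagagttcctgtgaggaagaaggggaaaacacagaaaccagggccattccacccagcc

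The Slc10a2 window held 3 CDX matches, 175, 62 and 52 bases before the start, an AP-1 match and an HNF1 core match, and no AGGTCA. Slc51b also held an AP-1 match, 232 bases before the start, and Nr1h4 an HNF1 core match, 40 bases before it. CDX matches occurred in 9.81% of 32851 RefSeq promoters over the same length, AP-1 matches in 6.75% and HNF1 core matches in 6.43%. The core site AGGTCA was present in the windows of Slc51b, Nr1h4 and Slc51a, as in 14.0% of all promoters. Nr1h4 also held a GATA match, a letter string found in 9.99% of all promoters. The full inverted repeat AGGTCANTGACCT, the FXR-RXR consensus, occurred in 2 of all promoters and the direct repeat AGGTCANAGGTCA in 11, and none of the 7 windows held either. A letter match is a description of the window and not a binding site.

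The importer gene Slc10a2 read 6.61, 6.32 and 6.50 in control replicates 1, 2 and 3 and 9.70, 10.49 and 8.13 in the transgenic replicates. All values labelled transgenic lay above all control values, and the 3 controls lay within 0.3 of each other while the transgenic arrays spread over more than 2 log2 units. The group means were 6.48 ± 0.15 and 9.44 ± 1.20 (SD, n = 3 each), which makes Slc10a2 7.77-fold higher. The log2 fold change of 2.96 (SE 0.57, 95% interval 1.59 to 4.33) passed in limma (adjusted p = 0.0202), and 0.401% of all genes had a larger absolute change. The exact two-sided permutation test gave p = 0.1, the smallest that 3 against 3 arrays allow. The call was lost without transgenic replicate 1, control replicate 2 or control replicate 3 (limma adjusted p = 0.072, 0.0809 and 0.0794), with log2 fold changes of 2.83 to 2.97. Control replicate 1 gave a control-level value.

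Fabp6, the cytosolic bile acid binding protein of ileal enterocytes, read 4.59, 4.57 and 4.75 in the controls and 5.34, 5.19 and 4.61 in the arrays labelled transgenic. All 3 control values lay in the dim range, so the ileal marker gave no signal above it in control jejunum, and 2 of the 3 values labelled transgenic lay just above it. The groups overlapped, and the log2 fold change of 0.41 (SE 0.20, 95% interval -0.07 to 0.89) did not pass (limma adjusted p = 0.209). Without transgenic replicate 3 it passed, at 0.63 (limma adjusted p = 0.0416). In the same arrays in which Slc10a2 read 9.70 and 10.49, Fabp6 read 5.34 and 5.19.

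The exporter subunit gene Slc51a read 10.27, 10.82 and 10.65 in the controls and 7.08, 9.84 and 7.64 in the transgenic replicates. The groups did not overlap, but transgenic replicate 2 was at -0.74 relative to the control mean while replicates 1 and 3 were at -3.5 and -2.94 relative to it. The means were 10.58 ± 0.28 and 8.18 ± 1.46 (SD, n = 3 each), a 5.26-fold lower level, and the log2 fold change of -2.39 (SE 0.69, 95% interval -4.08 to -0.71) did not pass in limma (adjusted p = 0.0617). It passed in limma when replicate numbers were blocked (adjusted p = 0.0226), and without transgenic replicate 2 the log2 fold change was -3.22 (limma adjusted p = 0.00246). The exact two-sided permutation test gave 0.1 here too. In whole epithelial preparations, fewer cells of a type and less RNA per cell cannot be told apart.

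Slc51b encodes the partner subunit. It read 10.96, 11.53 and 11.50 in the controls and 11.07, 12.65 and 12.32 in the transgenic replicates, so replicate 1 lay among the controls and replicates 2 and 3 above them. The log2 fold change was 0.68 (SE 0.42, 95% interval -0.33 to 1.70) and did not pass (limma adjusted p = 0.325). It passed without transgenic replicate 1, at 1.15 (limma adjusted p = 0.0464). Within each array, the log2 value of Slc51b minus that of Slc51a was 0.69, 0.70 and 0.85 in the controls and 3.99, 2.81 and 4.68 in the transgenic replicates. This difference was thus nearly constant in the controls, including control replicate 1, and larger in each array labelled transgenic. It grew by 3.08 on the log2 scale, from 0.75 ± 0.09 to 3.83 ± 0.95 (SD, n = 3 each). The log2 value of Slc10a2 minus that of Slc51a went from -4.10 ± 0.42 to 1.25 ± 1.19 (SD, n = 3 each). For both of these 2 pairs the exact two-sided permutation test gave its smallest possible p of 0.1, also when adjusted over the 2. For Slc10a2 and Slc51a this outcome was fixed, since each separated the groups by itself and in opposite directions.

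Enterocyte markers were read beside Slc51a in the same arrays. Sis, the brush border sucrase-isomaltase, was at -3.66, -0.68 and -4.07 relative to the control mean in transgenic replicates 1, 2 and 3, and did not pass in limma (log2 fold change -2.80, adjusted p = 0.0744). Of the 8 enterocyte markers, Vil1 fell, Cdh1 rose and 6 did not pass, with a median log2 fold change of -0.59. Epcam and Krt20 were at -0.03 and 0.26, and Alpi, Anpep and Fabp2 at -0.57, -0.66 and -0.60, so Sis had the largest difference of the 8. With the replicate block 4 fell, which were Vil1, Sis, Alpi and Fabp2 (limma adjusted p = 0.00813, 0.0347, 0.0253 and 0.0409). Blocked by sex, no enterocyte marker passed (lowest limma adjusted p = 0.0659, for Cdh1). The log2 of their summed level ranged from 15.79 to 16.22 in the controls and from 15.18 to 15.98 in the arrays labelled transgenic. Vil1 and Cdh1 lost their calls without control replicate 2 (limma adjusted p = 0.148 and 0.145), and Cdh1 also with the replicate block (limma adjusted p = 0.0718). Slc51b and Slc10a2, also genes of enterocytes, had higher means in the arrays labelled transgenic, though Slc51b did not pass. The part of enterocyte content in the values of Slc51a, Slc51b and Slc10a2 was not tested.

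**Figure D2:**
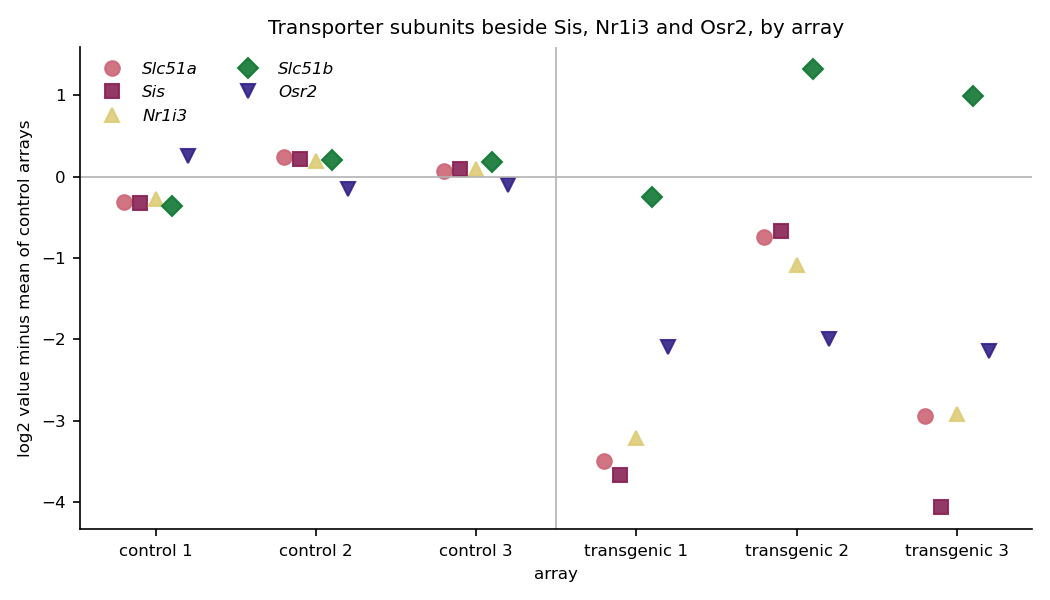
Log2 values of Slc51a, Slc51b, Sis, Nr1i3 and Osr2 in each array, minus the mean of the 3 control arrays. Slc51a, Sis and Nr1i3 lie near 0 in the controls, far below it in transgenic replicates 1 and 3 (-4.07 to -2.92) and nearer to it in replicate 2 (-1.08 to -0.68), Osr2 lies between -2.14 and -2.0 in all 3, and Slc51b lies above 0 in replicates 2 and 3.

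The receptor gene Nr1h4 read 9.61, 8.55 and 9.30 in the controls and 10.37, 10.30 and 10.26 in the transgenic replicates. Every value labelled transgenic lay above the controls, and here the controls spread by more than 1 log2 unit while the transgenic arrays lay within 0.11 of each other. The means were 9.15 ± 0.55 and 10.31 ± 0.05 (SD, n = 3 each), a 2.22-fold higher level. The log2 fold change of 1.15 (SE 0.26, 95% interval 0.51 to 1.79) passed in limma (adjusted p = 0.0319). The call was lost without transgenic replicate 1, 2 or 3 or without control replicate 3 (limma adjusted p = 0.102, 0.0611, 0.105 and 0.0933), and without control replicate 2, the lowest array, it was kept at a log2 fold change of 0.85 (limma adjusted p = 0.0343).

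Fgf15 and Nr0b2, which FXR is known to induce, did not pass, while Abcb11, another known FXR target read below, rose. Of 7 other reported FXR target genes, also read below, 1 fell and none rose. Fgf15, the enterocyte hormone of the ileum, read 6.45, 6.38 and 6.46 in the controls and 7.18, 7.63 and 6.72 in the transgenic replicates. The groups did not overlap, and the order of the transgenic arrays was that of Slc10a2, highest in replicate 2 and lowest in replicate 3. The log2 fold change of 0.75 (SE 0.22, 95% interval 0.21 to 1.29) did not pass (limma adjusted p = 0.0661), but did without transgenic replicate 3 (0.98, limma adjusted p = 0.0377), with array weights (0.63, limma adjusted p = 0.0411) and among genes with a mean of at least 6 (limma adjusted p = 0.0479). Nr0b2 read 5.50, 6.31 and 6.48 in the controls and 5.39, 5.89 and 5.80 in the transgenic replicates. The groups overlapped through control replicate 1, which lay 0.89 below the other controls, and the log2 fold change of -0.41 (SE 0.28, 95% interval -1.09 to 0.27) did not pass (limma adjusted p = 0.382). Without that array it was -0.70 (limma adjusted p = 0.0323). Gpbar1 read 6.50, 6.61 and 6.44 in the controls and 6.81, 6.59 and 6.79 in the transgenic replicates. Its groups overlapped and its log2 fold change of 0.21 (SE 0.09, 95% interval -0.02 to 0.44) did not pass (limma adjusted p = 0.186) here or without any 1 array.

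Osr2, a zinc finger transcription factor gene, gave the most uniform difference of the 10. It read 10.13, 9.73 and 9.78 in the controls and 7.78, 7.88 and 7.74 in the transgenic replicates. The groups were separated by 1.85 log2 units, several times the spread within either. The group means were 9.88 ± 0.22 and 7.80 ± 0.07 (SD, n = 3 each), which makes Osr2 4.22-fold lower. The log2 fold change of -2.08 (SE 0.12, 95% interval -2.38 to -1.77) passed in limma (adjusted p = 0.00112) and also in all 6 fits without 1 array (highest adjusted p = 0.0125, without control replicate 3). Unlike that of Slc51a, its fall was of like size in transgenic replicate 2. Onecut2, a homeodomain transcription factor gene, read 8.86, 9.08 and 9.11 in the controls and 9.43, 9.19 and 9.70 in the transgenic replicates. The groups did not overlap, by a margin under 0.1, and the log2 fold change of 0.42 (SE 0.15, 95% interval 0.06 to 0.78) did not pass (limma adjusted p = 0.103), but did without transgenic replicate 2 (0.55, limma adjusted p = 0.0421). Both genes read above the dim range in all 6 arrays.

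**Figure D3:**
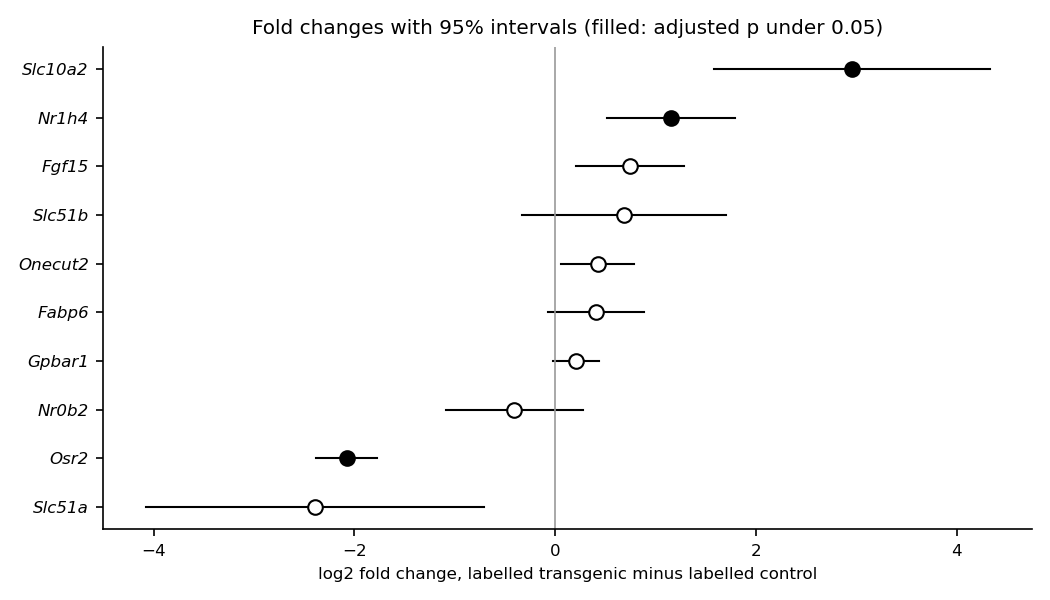
Log2 fold changes of the 10 genes, labelled transgenic minus labelled control, with 95% intervals from limma. Filled points passed at an adjusted p under 0.05, which were Slc10a2 (2.96), Nr1h4 (1.15) and Osr2 (-2.08).

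The groups were unbalanced in sex, so differences were also read within each sex, with 1 transgenic and 2 control females and with 2 transgenic and 1 control males. Slc10a2 was higher by 1.57 in females and 3.77 in males, and Nr1h4 by 0.80 and 1.78. Osr2 had differences of -2.21 in females and -1.90 in males, and Slc51a of -2.82 and -2.36. The groups did not overlap for any of these 4 genes, so the direction had to be the same in both sexes. Fabp6 had a difference of -0.06 in females and 0.70 in males, and Fgf15 of 0.27 and 1.02. With sex as a block, Slc10a2, Nr1h4 and Osr2 passed in limma (adjusted p = 0.0447, 0.0403 and 0.009).

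Between arrays of the same replicate number, Slc10a2 was higher in the transgenic array by 3.08, 4.17 and 1.63 for numbers 1, 2 and 3. Osr2 differed by -2.35, -1.85 and -2.03, and Slc51a by -3.19, -0.98 and -3.01. Nr1h4 was higher by 0.75, 1.75 and 0.96. All 3 pairs had the same direction for each of these 4 genes, as must follow where groups do not overlap.

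Genes whose mean-centred log2 profile over the 6 arrays was closest to that of a member were listed by root mean square difference. For Slc10a2 these were Cyp4a12b (0.52 log2 units), the alarmin gene Il33 (0.52) and Cyp4a12a (0.58). The Cyp4a12 genes are near-identical copies whose probes may read both. Il33 read 8.23, 9.02 and 8.74 in the controls and 11.05, 11.89 and 10.56 in the transgenic replicates. Il33 and Cyp4a12b had the order of Slc10a2 in the transgenic arrays, while Cyp4a12a (6.36, 8.88 and 6.52) did not. A like profile follows from the way these genes were picked. For Fabp6 the closest were Ptges (0.09), Hid1 (0.09) and Zfp418 (0.09), and for Fgf15 Zdhhc17 (0.06), Pla2g2d (0.12) and Gsr (0.14), none of which passed in limma.

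Further genes of bile acid handling and markers of gut position were read from 7 lists with 75 genes measured. Of these 75 genes 4 rose and 15 fell, beside 8.97% and 9.65% of all genes. The median log2 fold change of every list was below 0, between -0.97 and -0.09. Dim genes weigh on some of these medians. Among genes with a mean of at least 6, the median was -1.35 for colon genes (2 left). It was -1.09 for transport and detoxification and -0.74 for bile acid synthesis, and the other lists moved little. When replicate numbers were blocked 6 rose and 24 fell, beside 12.7% and 13.1% of all genes. With sex as a block 8 fell, and 4 fell in each fit without control replicate 2, control replicate 3, transgenic replicate 1 or transgenic replicate 3. In each fit without control replicate 1 or transgenic replicate 2, 20 fell.

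Of 12 bile acid receptors and partners measured, 1 rose and 6 fell, with a median of -0.59. The number that fell was 6 with the replicate block, 4 with sex as a block, 1 in each fit without control replicate 2, transgenic replicate 1 or transgenic replicate 3, and 2 without control replicate 3. Vdr, the vitamin D receptor, which also binds a bile acid, was at -2.42 ± 0.27 (SE), Rxrb, a dimer partner of FXR, at -0.61 ± 0.10 and Malrd1, which promotes Fgf15 production, at -0.94 ± 0.17. Rxra, the other dimer partner, and the xenobiotic receptor gene Nr1i3, both named after their values were seen, were at -1.65 and -2.41, while Nr1h4 rose. Nr1i3 was at -3.21, -1.08 and -2.92 relative to the control mean in transgenic replicates 1, 2 and 3. Fgfr4, the receptor that FGF15 binds, read 7.70, 6.52 and 6.72 in the controls and 9.31, 8.88 and 8.70 in the transgenic replicates and rose by 1.98 ± 0.34 (SE). Its co-receptor gene Klb, also named after its values were seen, read 4.90 to 5.29 over the 6 arrays, at the upper edge of the dim range. Vdr passed without any 1 array, and the others lost their calls at limma adjusted p values of up to 0.0643 for Rxrb and 0.0733 for Malrd1 (both without transgenic replicate 3), 0.0791 for Rxra and 0.067 for Fgfr4 (both without control replicate 3) and 0.119 for Nr1i3 (without transgenic replicate 3).

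Among 18 genes of bile acid and organic anion transport and detoxification, 2 rose and 3 fell, with a median of -0.20. Abcb11, the bile salt export pump of hepatocytes and a known FXR target, read 5.21, 4.96 and 4.82 in the controls and 6.95, 7.44 and 7.40 in the transgenic replicates. It rose by 2.27 ± 0.17 (SE, limma adjusted p = 0.00195) from a control level at the edge of the dim range, so the size of the rise is uncertain. Alb, an abundant hepatocyte transcript, read 5.16 to 5.53 over the 6 arrays, and the log2 of the summed level of the 5 hepatocyte and pancreas markers was 8.11 to 8.22 in the controls and 7.95 to 8.24 in the arrays labelled transgenic. Abcc4, a basolateral exporter, rose by 1.15 ± 0.15 (SE), while Abcc2, an apical exporter of conjugates, was at -1.85 (SE 0.15) and Slco2b1, an organic anion importer, at -1.95 (SE 0.21). These 4 passed in limma without any 1 array, with adjusted p values of up to 0.0168 for Abcb11, 0.038 for Abcc4, 0.02 for Abcc2 and 0.0298 for Slco2b1. The third gene that fell was Slc27a2, named after its values were seen, at -1.85 (limma adjusted p = 0.0224, and 0.0878 without control replicate 2). With the replicate block 7 of the 18 fell, the other 4 being Cyp3a25, Sult2b1, Cyp27a1 and Abcc3 (limma adjusted p = 0.0034, 0.0129, 0.0326 and 0.0338, against 0.114, 0.292, 0.0805 and 0.0833 without it), named after their values were seen.

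Of 9 genes of bile acid synthesis, none rose and 3 fell. Cyp7a1, the rate-limiting enzyme in liver, and Cyp7b1 and Akr1d1, all named after their values were seen, lay in or below the dim range in all 6 arrays. The 3 that fell were Hsd17b4, a peroxisomal enzyme that also serves fatty acid oxidation, at -1.37 ± 0.29 (SE), Hsd3b7 at -0.74 ± 0.14 and Amacr at -0.72 ± 0.17. They lost their calls without 1 array (limma adjusted p of up to 0.099 without control replicate 2, 0.0802 without control replicate 3 and 0.12 without control replicate 2). With the replicate block Scp2 fell too (limma adjusted p = 0.0151, against 0.178 without it), named after its values were seen. Blocked by sex, 1 of the 9 fell. Of 7 other reported FXR target genes, which do not include Abcb11, 1 fell and none rose. It was the sphingomyelinase gene Smpd3, at -1.41 ± 0.21 (SE, limma adjusted p = 0.0102, and 0.0512 without control replicate 3). Car12, also named after its values were seen, was at 0.46 and passed with the replicate block (limma adjusted p = 0.0212, against 0.178 without it).

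Markers of position along the gut were read from 3 lists, and no test of a shift of a list was run. Of 13 proximal genes, the duodenal transcription factor gene Pdx1 rose by 0.75 ± 0.17 (SE, limma adjusted p = 0.032, and 0.118 without control replicate 3) and 12 did not pass. With the replicate block Lct, Fabp1 and Gip fell (limma adjusted p = 0.00592, 0.0221 and 0.033, against 0.253, 0.188 and 0.131 without it), genes named after their values were seen. Gata4, known to hold ileal genes such as Slc10a2 low in the jejunum and named after its values were seen, read 10.33, 10.67 and 10.44 in the controls and 10.49, 10.47 and 10.57 in the transgenic replicates. Its log2 fold change was 0.03 (SE 0.11, limma adjusted p = 0.875). Of 8 other genes of the distal small intestine, the vitamin B12 uptake receptor genes Cubn and Amn fell by 4.09 and 1.47 on the log2 scale, with calls lost without transgenic replicate 3 and control replicate 3 (limma adjusted p = 0.109 and 0.158). Blocked by sex, neither passed (limma adjusted p = 0.0602 and 0.0895). Tmigd1, named after its values were seen, had the direction of Slc10a2. It read 8.78, 8.65 and 8.62 in the controls and 10.12, 11.57 and 9.57 in the transgenic replicates, a log2 fold change of 1.74 that did not pass (limma adjusted p = 0.0557). The replicate block brought it past the threshold (limma adjusted p = 0.0347). The other 5 of the 8 had lower means and did not pass in either fit. Without control replicate 1, 5 of the 8 fell, where 27.8% of all genes passed in either direction. Beside Cubn and Amn these were Mep1a, Nts and Pyy (limma adjusted p = 0.0228, 0.0216 and 0.0389), named after their values were seen. None of 8 colon genes passed in limma without the block. The lowest p values among them were those of the chloride exchanger gene Slc26a3, at -1.45 (adjusted p = 0.0525, or 0.0489 when replicates were blocked), and of Car4, at -1.24 (adjusted p = 0.174).

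**Figure D4:**
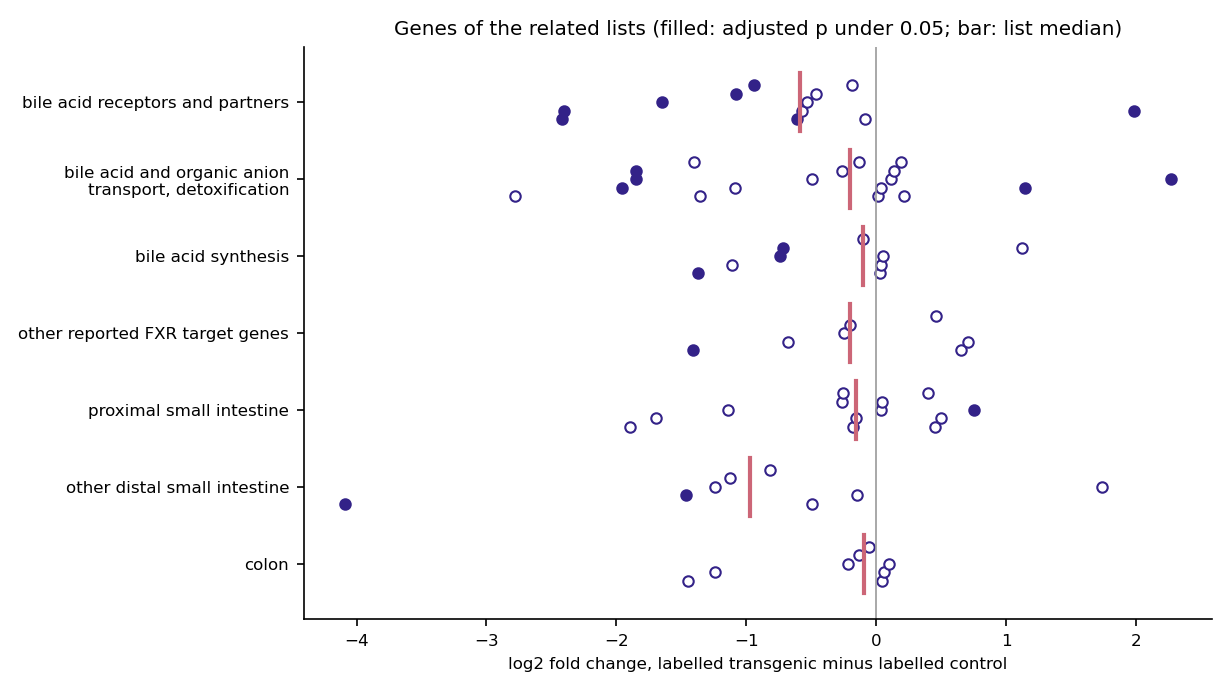
Log2 fold changes, labelled transgenic minus labelled control, of the genes in 7 lists related to bile acid handling and gut position. Each point is a gene, filled where it passed at an adjusted p under 0.05, and bars are list medians, from -0.97 for other distal genes to -0.09 for colon genes. Filled points lie on both sides of 0 among receptors and transporters.

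Markers of other cell types were read for the same arrays. All 8 markers of T and intraepithelial lymphocytes fell, with a median of -1.96, and the log2 of their summed level was 12.23 to 12.92 in the controls and 9.77 to 11.04 in the arrays labelled transgenic. Of 7 enteroendocrine markers, Neurog3, Chgb and Gcg fell and none rose, with summed levels of 11.70 to 12.12 and 10.53 to 11.87. Those 3 calls were lost without 1 array, Neurog3 without transgenic replicate 1 and the others without transgenic replicate 3 (limma adjusted p = 0.0717, 0.113 and 0.162). Blocked by sex, all 3 missed the threshold in limma (adjusted p = 0.0539, 0.0706 and 0.0803). Of the lymphocyte markers, Itgae and Nkg7 passed without any 1 array and the other 6 did not, with a limma adjusted p of up to 0.102. Blocked by sex, 6 of the 8 fell. None of 3 B and plasma cell, 5 macrophage or 7 stromal and muscle markers passed, apart from Cd68 with the replicate block (0.41, limma adjusted p = 0.0232, against 0.0985 without it). The macrophage marker Adgre1 and the B cell marker Cd79a lay within the dim range in all 6 arrays. The part of lymphocyte and enteroendocrine RNA in the values of the 10 genes was not tested.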

How the data were processed

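Expression of 6 mouse jejunal epithelium samples was deposited by the authors as log2 values, 1 column per array, for 28350 probe sets. Their range gives the scale, and RMA in Partek is named, without versions, per the submitters' processing notes. RMA normalizes between arrays, so a global change in RNA amount is removed and changes of dim probe sets are compressed. The sources used here name no genome build for the probe sets, so no probe set coordinates are printed, and the promoter windows carry RefSeq's own coordinates.

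Probe sets naming 1 gene (21780) were used, 21689 with symbols updated by gene ID from RefSeq (GRCm38.p6), and the probe set with the highest mean stood for a gene (19933 genes). The test was limma 3.58.1 under R 4.3.3 (lmFit, eBayes, two-sided, Benjamini-Hochberg over all genes, threshold 0.05). Intervals are 95% from the moderated fit. On simulated data with 19933 genes for this comparison, 65% of genes changed by 1 log2 unit and 90% changed by 2 were recovered, with 6 false calls. The simulation drew noise independently for each gene and changed few genes. The real arrays share deviations across genes, so these rates may not hold for them. Replicate numbers are shared by the groups. Deviations from group means correlated by 0.52, 0.41 and 0.13 for numbers 1, 2 and 3, all over 0.1. The numbers were therefore taken to pair the arrays on the data alone, since the labels do not state what a number stands for. Control replicate 3 and transgenic replicate 2, of unlike number, correlated by 0.32, and the other unlike pairs by -0.44 to -0.0057. Deviations within a group of 3 depend on each other, so the pairing is uncertain. The fit without the block is reported, with blocked values where they change a call. Named genes were the 10 members, Msi1 and Msi2, up to 4 genes past the threshold per list, or the 2 with the lowest p, defining markers, and 3 genes of closest profile for Slc10a2, Fabp6 and Fgf15. Members, lists and motifs were chosen with earlier results of these data known. Alternatives were the replicate block, sex as a block, probe set averaging, filters on the mean, quantile normalization, median centring, variance trends, array weights, all probe sets, thresholds of 0.01 and 0.1, and leaving out each array.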

Additional observations from a re-analysis of the deposited data

How the results depend on the processing

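No member changed direction under any alternative that could be fitted. Fabp6 gave no value with a filter at a mean of 5 or 6, nor Nr0b2 at 6. Of all genes, 1787 rose and 1923 fell. These counts were 3630 and 3442 with array weights, 1068 and 1091 with sex as a block, 395 and 406 at a threshold of 0.01, and from 476 to 2663 and from 476 to 2879 without 1 array, while 2729 rose at a threshold of 0.1. Of the 10 members, 2 rose and 1 fell. With array weights 4 rose and 3 fell, at 0.01 none rose and 1 fell, and without 1 array 0 to 3 rose and 1 to 2 fell. 2 fell with the replicate block, with either variance trend, with either filter on the mean and at a threshold of 0.1, the second being Slc51a. Among the related lists 4 genes rose and 15 fell, against 8 and 31 with array weights, 2 and 3 at 0.01, and 2 to 5 and 4 to 20 without 1 array, while 24 fell with the replicate block and 8 with sex as a block. The replicate block changed no call of another member. A fit without 1 array has fewer arrays and so less power. No background calls were used, which limits Fabp6, Klb and Abcb11 most.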
